A study of Mus musculus with 3 samples.

Results

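Gm42418, AY036118 and Gm26917 lie on or beside the 18S ribosomal RNA on mouse chromosome 17. They are described here in nuclei of tissue dissected as mouse prefrontal cortex (PFC). They were selected on their place at the ribosomal RNA and on a high level seen earlier in these same counts, and they are 3 of the 32285 genes in each count matrix. The data are single nucleus RNA-Seq (snRNA-Seq) counts of unique molecular identifiers (UMIs, one per captured RNA molecule) in 3 libraries, each made from the pooled PFC of male mice of 6 to 8 weeks. The C57BL/6 library came from 5 wild-type mice. The Nav1 KO library came from 4 mice of the C57BL/6 strain whose Nav1 gene (neuron navigator 1) had been knocked out in embryos with CRISPR, and the third library came from mice of the strain BTBR T<+> Itpr3<tf>/J, whose number was not given. Nuclei were sorted on the DNA stain Hoechst and on NeuN, a protein of most neuronal nuclei, with NeuN+ and NeuN- nuclei both collected. Since each group was 1 pooled library, no difference between groups could be tested, and the 95% intervals below cover counting error only.

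Ribosomal RNA is made in the nucleolus by RNA polymerase I as one long precursor, in which the 18S rRNA follows a 5′ external transcribed spacer and is followed by an internal spacer. The spacers are cut away inside the nucleus, while the finished 18S rRNA leaves for the cytoplasm as part of the small ribosomal subunit. Ribosomal RNA carries no long poly(A) tail, and libraries primed with oligo-dT can still take it up where its sequence holds runs of A.

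The positions of the 3 genes were read from GENCODE M21 (build GRCm38), whose gene identifiers are those of the matrices. GENCODE lists the 18S rRNA there as CT010467.1 at chr17:39846353-39848201 on the minus strand, but it is the plus strand that reads as the 18S rRNA, with its known end ggatcatta, and the rRNA is taken as lying on the plus strand in what follows. Gm26917 (ENSMUSG00000097971) is annotated as a lincRNA on the plus strand at chr17:39843013-39846341, and it ends 11 bases before the 18S rRNA begins, in the place of the 5′ external spacer. Gm42418 (ENSMUSG00000098178), a lincRNA of 1 exon on the plus strand at chr17:39846958-39848788, starts at base 606 of the 18S rRNA. Its first 1244 bases are identical to the 18S rRNA and its last 587 bases lie beyond the 18S end. AY036118 (ENSMUSG00000105361), a lincRNA of 1 exon at chr17:39847113-39848035, lies on the minus strand, and all of its 923 bases are the complement of bases 761 to 1683 of the 18S rRNA. The map of the locus shows that AY036118 lies wholly inside Gm42418 on the opposite strand, so that reads over the shared 923 bases can be told apart by strand only, while the rest of Gm42418 lies outside AY036118. Whether the counting used strand was not given in the sources used here.

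**Figure D1:**
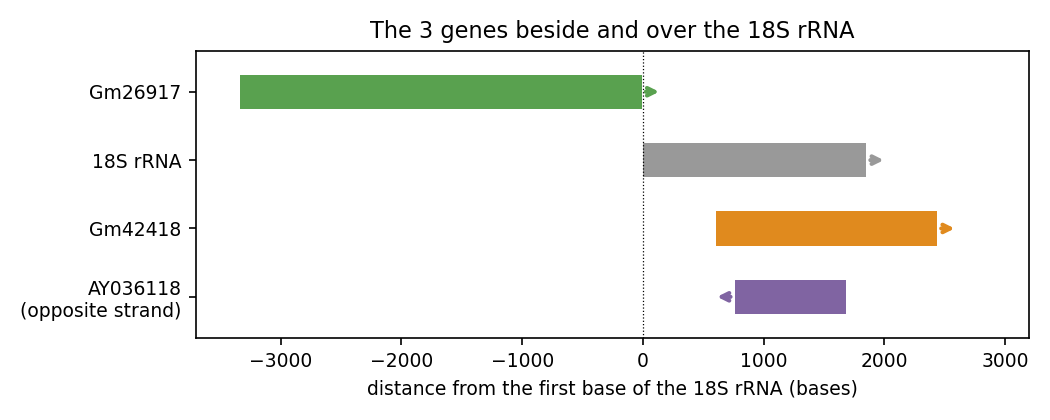
Map of the 3 genes and the 18S rRNA, drawn to scale, with the 18S rRNA in the direction of its own sequence (plus strand) and not on the minus strand of its GENCODE entry. The x axis gives the distance in bases from the first base of the 18S rRNA, bars are annotated transcripts and arrows point in the direction of transcription. Gm26917 ends 11 bases before the 18S rRNA, and Gm42418 and AY036118 overlap it on opposite strands.

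The stretch of Gm42418 that crosses the end of the 18S rRNA (GRCm38 chr17:39848162-39848241, plus strand) is shown because it marks where the rRNA stops and spacer begins, with the bases outside the 18S rRNA in capitals.

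Gm42418: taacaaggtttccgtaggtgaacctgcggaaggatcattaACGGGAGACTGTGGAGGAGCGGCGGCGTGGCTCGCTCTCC

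The longest run of A in each gene, in capitals with its 40 neighbouring bases on either side, is shown because oligo-dT pairs with such runs. The windows are chr17:39847127-39847212 on the plus strand for Gm42418, chr17:39847206-39847289 on the minus strand for AY036118 and chr17:39845096-39845179 on the plus strand for Gm26917.

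Gm42418: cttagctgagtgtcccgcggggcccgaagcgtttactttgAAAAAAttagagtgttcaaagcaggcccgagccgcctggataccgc

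AY036118: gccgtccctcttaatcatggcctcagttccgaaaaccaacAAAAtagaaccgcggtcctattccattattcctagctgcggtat

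Gm26917: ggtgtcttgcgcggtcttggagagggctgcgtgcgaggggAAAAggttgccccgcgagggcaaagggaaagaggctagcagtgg

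The longest run of A in Gm42418 was 6 bases, and it held 2 runs of at least 5, whereas the longest run in AY036118 and in Gm26917 was 4 A. A run of at least 6 A on the sense strand is common, and 37.7% of the 141767 GENCODE M21 transcripts held one. The GC share was 60.2% in Gm42418, 54.4% in AY036118 and 69.1% in Gm26917.

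Barcodes with fewer than 200 genes, or with 10% or more of their counts from mitochondrial genes, were removed, which left 14630 nuclei in C57BL/6, 14056 in Nav1 KO and 14777 in BTBR. They held 38701384, 50962468 and 48936236 counts, with medians of 2074, 2754 and 2510.0 UMIs per nucleus. The libraries shared 55 to 66 cell barcodes in pairs. Nav1 itself was at 345 CPM (a gene's counts over all counts of the library scaled to one fixed total) in C57BL/6, 264 CPM in Nav1 KO and 146 CPM in BTBR. The knockout was made by a deletion within Nav1 and the counts are summed over the whole gene, so this value does not check the label. The labels call the cells neurons, yet clusters with astrocyte and oligodendrocyte markers were present in every library. Clusters resembling neuron types of regions outside the PFC were present too. Medium spiny neuron-like nuclei made up 10.7%, 3.40% and 4.71% of C57BL/6, Nav1 KO and BTBR. Olfactory bulb mitral or tufted-like nuclei made up 0.273%, 3.90% and 2.43%. Whether the dissections differed was not tested.

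Together the 3 genes made up 0.328% of all counts in C57BL/6, 0.212% in Nav1 KO and 0.218% in BTBR. Gm42418 was the most abundant of them in all 3 libraries, with 1721 CPM (interval 1708 to 1734) in C57BL/6, 1460 CPM (1449 to 1470) in Nav1 KO and 1497 CPM (1486 to 1508) in BTBR. It ranked 11th, 12th and 15th among all genes by counts, and its libraries lay within 1.18-fold of each other. AY036118, on the strand opposite to the 18S sequence, stood at 1287 CPM (1276 to 1299) in C57BL/6, 556 CPM (549 to 562) in Nav1 KO and 520.1 CPM (514 to 527) in BTBR. C57BL/6 was thus the high library, and Nav1 KO and BTBR lay close together below it. Gm26917, the gene in the place of the 5′ spacer, was the least abundant, with 269 CPM (264 to 274) in C57BL/6, 108 CPM (105 to 111) in Nav1 KO and 166 CPM (163 to 170) in BTBR. As with Gm42418 and AY036118, the intervals of its 3 libraries did not overlap. Those of Nav1 did not overlap either. The share of all genes separated in this way was not counted, so nothing about the 3 genes is read from it.

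**Figure D2:**
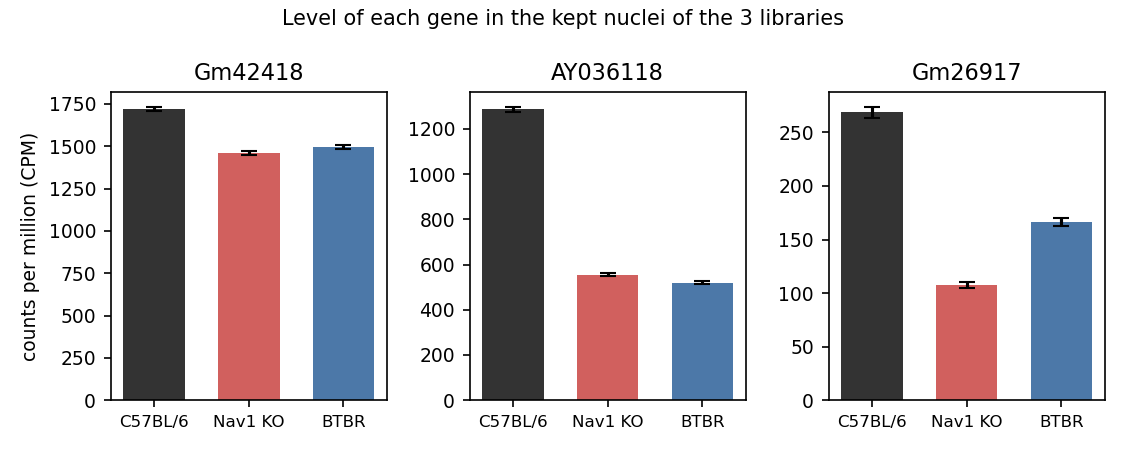
Level of each gene in the kept nuclei of each library, in CPM with exact Poisson 95% intervals, 1 pooled library per bar. The bars start at 0 and each panel has its own scale. AY036118 falls from 1287 CPM in C57BL/6 to 556 and 520.1 CPM in the other libraries, while Gm42418 stays between 1460 and 1721 CPM.

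Relative to C57BL/6, the 3 genes summed were at 0.648 (0.643 to 0.653) in Nav1 KO and at 0.666 (0.661 to 0.672) in BTBR. The size of the difference was unequal among the genes. Gm42418 was at 0.848 (0.840 to 0.857) and 0.870 (0.861 to 0.879) of its C57BL/6 level. AY036118 was at 0.432 (0.426 to 0.438) and 0.404 (0.398 to 0.410), and Gm26917 at 0.401 (0.388 to 0.414) and 0.619 (0.601 to 0.637). As background, the comparison of Nav1 KO with C57BL/6 covered 3754 genes, those that reached 50 CPM in either library and had 20 or more counts in its partner. Of these 3.73% were lower by 1.5-fold or more in Nav1 KO than in C57BL/6 and 2.56% were higher. For BTBR these shares were 4.19% lower and 5.55% higher of 3966 genes. AY036118 and Gm26917 were past 1.5-fold on the lower side in both comparisons and Gm42418 in neither, but since the members were chosen with these levels known, nothing is read from those counts. The median ratio of the other genes was 0.913 for Nav1 KO (-0.13 on the log2 scale) and 1.00 for BTBR. Malat1, a nuclear long RNA that stood at 249864 CPM in C57BL/6 and 297802 CPM in Nav1 KO, went the other way, at a ratio of 1.19, and with Malat1 left out of the totals the median was 0.975. Relative to the median gene, the 3 genes summed were at 0.710 in Nav1 KO and 0.665 in BTBR.

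Per nucleus, the 3 genes took a median of 0.277% of the UMIs in C57BL/6, 0.179% in Nav1 KO and 0.187% in BTBR. The 99th percentile was 1.38%, 0.964% and 0.931%, and the highest single nucleus held 20.3%, 7.91% and 4.26%. Only 381, 125 and 112 nuclei were above 1%, and 5, 3 and 0 above 5%. At an equal depth of 1000 UMIs, only Gm42418 was found in most nuclei of every library. After each nucleus was thinned to 1000 UMIs, with 2394, 1249 and 2096 shallower nuclei left out, Gm42418 had a UMI in 74.2%, 70.1% and 70.4% of nuclei. AY036118 had one in 61.8%, 37.7% and 38.6%, and Gm26917 in 22.5%, 9.75% and 14.8%. The unthinned shares were 89.9%, 91.1% and 89.9% for Gm42418, 80.1%, 65.8% and 65.2% for AY036118, and 40.8%, 26.9% and 35.0% for Gm26917. Every cell makes ribosomal RNA, so no cell type could serve as a blank for free RNA in the droplets, and its part in these shares was not tested.

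The nuclei fell into 13 clusters when clustered without the 3 genes, of which 8 could be named from marker lists. Summed, the 3 genes were high in all libraries in cluster 3, which resembled cortical interneurons (Gad1, Gad2, Sst, Npy and Adarb2, genes of GABA synthesis, neuropeptides and interneuron identity), and low in cluster 2, which resembled layer 2/3 neurons (Rasgrf2 and Otof). In cluster 3, 65.4% of nuclei held a cortical interneuron marker, and olfactory bulb interneuron markers came next, at a median fold of 2.91 against 7.88. A finer clustering held a cortical interneuron-like cluster of 757, 497 and 862 nuclei in C57BL/6, Nav1 KO and BTBR. It also held an unnamed cluster of 117, 781 and 662 nuclei with bulb interneuron genes such as Th. Whether cluster 3 mixes these types in unequal parts was not tested. In summed members, the interneuron-like cluster held 5743 CPM (5631 to 5857) in C57BL/6, 3375 CPM (3306 to 3445) in Nav1 KO and 3151 CPM (3092 to 3211) in BTBR. The layer 2/3-like cluster held 2386 CPM (2342 to 2430), 1558 CPM (1528 to 1588) and 1562 CPM (1528 to 1596). The ratio of the 2 clusters was 2.41 (2.34 to 2.47), 2.17 (2.11 to 2.23) and 2.02 (1.96 to 2.08). In C57BL/6 and BTBR these were the highest and the lowest cluster of at least 50 nuclei by this same level. A ratio above 1 follows from that order there, and the intervals make no allowance for it. In Nav1 KO the extremes were the astrocyte-like cluster and cluster 1. The interneuron-like nuclei were shallower and richer in mitochondrial counts, with medians of 1631 to 1826 UMIs against 2981 to 3738 and mitochondrial shares of 1.04% to 1.31% against 0.177% to 0.268%. Among nuclei under 0.5% mitochondrial counts the ratio was 2.64, 2.13 and 2.03. Among nuclei of 2000 and under 4000 UMIs from other genes it was 2.67, 2.41 and 2.11, and among those of 1000 and under 2000 it was 2.56, 1.98 and 1.73.

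In C57BL/6 the next clusters were 7, led by the meningeal transporter Slc6a13 and the endothelial receptor gene Flt1 and left unnamed, and 12, with genes of oligodendrocyte precursors such as Pdgfra and of ensheathing glia, also unnamed. They held 5177 and 5155 CPM and did not differ beyond counting error. The astrocyte-like cluster followed with 4687 CPM, and did not differ from the meningeal fibroblast-like cluster at 4535 CPM. The layer 6 corticothalamic-like cluster held 3775 CPM. It was followed by the unnamed cluster 6 with 3574 CPM and by the oligodendrocyte-like cluster with 3561 CPM, and these 2 did not differ. Cluster 6 was led by microglial genes, but only 36.2% of its nuclei held a microglial marker, and astrocyte markers came next. Clusters 0, medium spiny neuron-like and 1 held 3202, 3132 and 2702 CPM. In Nav1 KO the astrocyte-like cluster was highest with 3640 CPM (3527 to 3755) and did not differ from cluster 12 at 3624 CPM, and cluster 1 was lowest with 1335 CPM. Their median depths there were 1480.5, 1340 and 1843.5 UMIs, so cluster 1 was not the shallowest. In BTBR the interneuron-like cluster was highest, and clusters 12, 7 and meningeal fibroblast-like came next with 2830, 2809 and 2793 CPM, and neighbours in that order did not differ. The olfactory bulb mitral or tufted-like cluster held 2145 CPM in Nav1 KO and 2136 CPM in BTBR, and only 40 nuclei in C57BL/6.

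The 3 genes did not share one pattern across clusters. Gm42418 spanned 1125 to 3167 CPM in C57BL/6, a 2.82-fold range over the 12 clusters with at least 50 nuclei, and AY036118 spanned 948 to 2296 CPM, a 2.42-fold range. Gm26917 spanned only 221 to 298 CPM there, a 1.35-fold range. In Nav1 KO it spanned 68.4 to 160 CPM, 2.34-fold, beside 2.62-fold for Gm42418 and 3.54-fold for AY036118. In BTBR it spanned 142 to 237 CPM, 1.67-fold, beside 2.34-fold for Gm42418 and 1.82-fold for AY036118. Gm26917 thus had the narrowest range of the 3 genes in each library, and its gap to the other ranges was largest in C57BL/6. These ranges include counting error. Between the interneuron-like and layer 2/3-like clusters Gm42418 differed 2.82-fold, 2.43-fold and 2.34-fold in C57BL/6, Nav1 KO and BTBR. Gm26917 stood at 280 against 281 CPM in C57BL/6, 106 against 113 CPM in Nav1 KO and 177 against 166 CPM in BTBR. The ratios for Gm26917 were 0.996 (0.896 to 1.11), 0.943 (0.820 to 1.08) and 1.07 (0.960 to 1.18), so over all kept nuclei a difference of this gene between the 2 clusters was not detectable at this depth in any library. Under 0.5% mitochondrial counts they were 1.16 (0.9997 to 1.35), 1.13 (0.927 to 1.36) and 1.20 (1.04 to 1.37). Among nuclei of 2000 and under 4000 UMIs they were 1.17 (1.002 to 1.35), 1.11 (0.885 to 1.38) and 1.07 (0.910 to 1.25). A small excess was thus seen in BTBR under the first limit and in C57BL/6 under the second. Across clusters Gm42418 and AY036118 had Pearson correlations of 0.945, 0.940 and 0.851 in the 3 libraries, while Gm42418 and Gm26917 had -0.014, 0.436 and 0.260, over 12, 13 and 13 clusters. AY036118 and Gm26917 had 0.0704, 0.417 and 0.634. These values describe clusters that share a library.

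**Figure D3:**
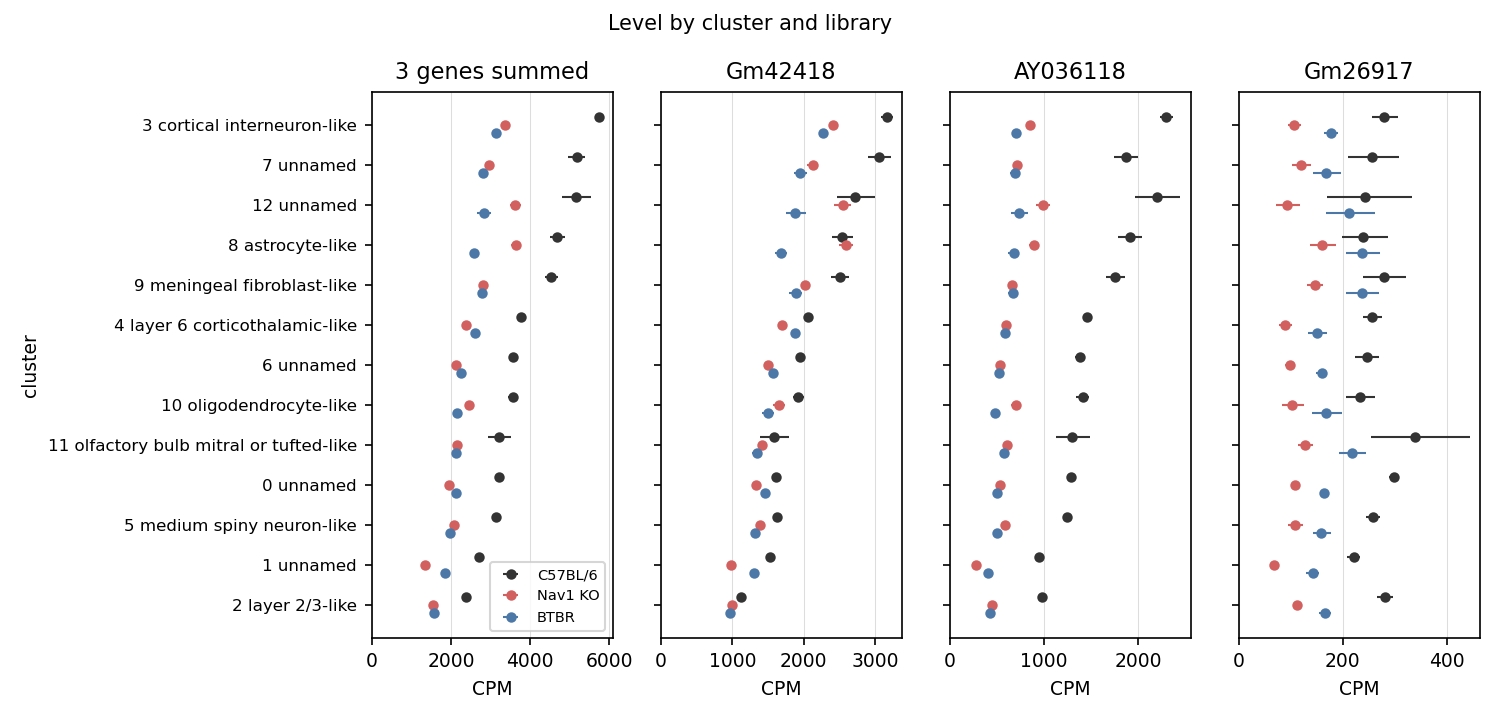
Level of the 3 genes summed and of each gene by cluster and library, in CPM with exact Poisson 95% intervals; clusters are ordered by the summed level in C57BL/6. The summed level of the interneuron-like cluster is 5743 CPM in C57BL/6 against 2386 CPM in the layer 2/3-like cluster, and Gm26917 in C57BL/6 lies between 221 and 298 CPM in the clusters of at least 50 nuclei.

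The difference between libraries in the summed level was present in each of the 13 clusters. The summed level was lower in Nav1 KO than in C57BL/6 in 13 of 13 clusters, with ratios of 0.494 to 0.777 and a median of 0.630, and lower in BTBR in 13 of 13 clusters, with ratios of 0.543 to 0.694 and a median of 0.630. AY036118 ranged from 0.295 to 0.501 in Nav1 KO and from 0.307 to 0.442 in BTBR. Gm42418 was below 1 in 12 clusters in Nav1 KO, with its interval below 1 in 10 of them, the exception being the astrocyte-like cluster at 1.02. In BTBR it was below 1, interval included, in all 13. Gm26917 was below 1 in all 13 clusters in both comparisons, but in BTBR its interval included 1 in 3 of them. With a finer clustering into 21 clusters, the summed level was lower in 20 of 21 clusters in Nav1 KO. In the remaining one, an unnamed cluster of shallow nuclei, it was at 1.01, and Gm42418 was at 1.43. In that clustering an endothelial-like cluster of 50, 108 and 74 nuclei stood highest in all 3 libraries, with 9422, 4650 and 4174 CPM, of which Gm42418 made up 6401, 3536 and 3062 CPM. It was also rich in mitochondrial counts, with 2.31%, 1.85% and 1.98%, and that share's part in its level was not tested.

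Over whole libraries the summed level was higher in the shallowest nuclei, but single clusters went both ways. With depth measured by the UMIs of other genes, nuclei under 1000 UMIs had 1.38 (1.34 to 1.41), 1.52 (1.46 to 1.57) and 1.34 (1.3 to 1.38) times the summed level of nuclei of 4000 UMIs or more in C57BL/6, Nav1 KO and BTBR. In CPM these were 4498 against 3269, 3164 against 2086 and 2888 against 2157. From 1000 UMIs upward the level stayed between 3118 and 3293 CPM in C57BL/6, whereas it was 2492 CPM at 1000 to 2000 UMIs and 2008 CPM at 2000 to 4000 in Nav1 KO, and 2501 and 2066 CPM in BTBR. Within clusters of equal weight the ratio was 1.23, 1.18 and 1.24, and of the 8 clusters with enough nuclei of both depths 4, 5 and 7 had a ratio above 1. The median over these clusters was 1.04, 1.13 and 1.11. The interval lay above 1 in 4, 3 and 3 of them and below 1 in 2, 3 and 1. The ratio in single clusters ran from 0.596 to 2.06 in C57BL/6, from 0.559 to 3.02 in Nav1 KO and from 0.904 to 2.18 in BTBR, and was highest in cluster 1 in each library. Gm42418 alone was 1.61, 1.72 and 1.40 times higher in the shallow nuclei. Gm26917 was at 0.780 (0.704 to 0.862) and 0.784 (0.626 to 0.972) in C57BL/6 and Nav1 KO, the opposite direction, and at 1.05 (0.928 to 1.19) in BTBR. The few nuclei with under 500 other UMIs, 15, 11 and 9, held 17914, 12285 and 9505 CPM. The deposited barcodes begin at 499 or 500 UMIs, so a nucleus can only be in that bin through its member counts. Between libraries, Gm42418 in Nav1 KO was at 0.820 to 0.905 of C57BL/6 in 4 of the 5 depth bins from 500 UMIs, and at 1.03 (1.00 to 1.06) in the bin of 1000 to 2000 UMIs, where the direction turned. In BTBR it was at 0.785 to 0.994. AY036118 was at 0.391 to 0.512 in Nav1 KO and 0.383 to 0.502 in BTBR, and Gm26917 at 0.370 to 0.439 and 0.532 to 0.804.

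The 3 genes differed in how they went with the mitochondrial share. Mitochondrial RNA does not belong in a nucleus, and its share is commonly read as a sign of cytoplasm around the nuclei or in the droplet. From nuclei under 0.5% to nuclei of 5% to 10% mitochondrial counts, Gm42418 went from 1543 to 3053 CPM in C57BL/6, from 1298 to 2922 CPM in Nav1 KO and from 1378 to 3295 CPM in BTBR. AY036118 went from 1247 to 1600 CPM, from 531 to 704 CPM and from 505 to 705 CPM. Gm26917 went the other way in C57BL/6, from 296 to 189 CPM, and in Nav1 KO, from 115 to 69.4 CPM, and stood at 170 and 167 CPM in BTBR. Over whole libraries, then, Gm26917 alone of the 3 genes was not higher in the nuclei rich in mitochondrial counts. The part of the nucleus or cytoplasm from which the counts of each gene came was not tested.

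Nuclei of 2% or more had 1.33 (1.3 to 1.35), 1.52 (1.49 to 1.55) and 1.45 (1.42 to 1.49) times the summed level of nuclei under 0.5%. Within clusters of equal weight the ratio was 1.20, 1.23 and 1.31. For Gm42418 the whole-library ratio was 1.59, 1.71 and 1.61, for AY036118 1.16, 1.22 and 1.18, and for Gm26917 0.692 (0.639 to 0.748), 0.767 (0.688 to 0.854) and 0.956 (0.865 to 1.05). The number of single clusters with a Gm42418 ratio above 1 was 10 of 11 in C57BL/6, 12 of 12 in Nav1 KO and 10 of 12 in BTBR. AY036118 was above 1 in 6 of 11, 6 of 12 and 6 of 12 clusters, and Gm26917 in 2 of 11, 1 of 12 and 4 of 12.

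The 772, 567 and 461 barcodes that the filters remove, nearly all for 10% or more mitochondrial counts, had high levels of both 18S genes. There Gm42418 stood at 10340, 10171 and 14221 CPM, which is 6.01, 6.97 and 9.50 times its level in the kept nuclei. AY036118 stood at 3153, 1274 and 1149 CPM, which is 2.45, 2.29 and 2.21 times its level in kept nuclei. Gm26917 was lower, at 65.6, 48.3 and 50.9 CPM, which is 0.244 (0.190 to 0.309), 0.448 (0.338 to 0.583) and 0.306 (0.224 to 0.409) of its level in kept nuclei. Among barcodes with at least 200 genes and 10% or more mitochondrial counts, Gm42418 in BTBR was at 1.38 (1.34 to 1.41) times C57BL/6, whereas AY036118 was at 0.365 (0.340 to 0.391). In Nav1 KO these ratios were 0.986 (0.961 to 1.01) and 0.404 (0.380 to 0.430). The 3 genes summed were thus higher in BTBR than in C57BL/6 in these barcodes, at 1.14 (1.11 to 1.16), the opposite of the kept nuclei, and at 0.849 (0.829 to 0.870) in Nav1 KO. In every bin of mitochondrial share below 10%, AY036118 stayed between 0.426 and 0.450 of its C57BL/6 level in Nav1 KO and between 0.405 and 0.441 in BTBR, while Gm42418 ranged from 0.841 to 0.957 and from 0.853 to 1.08.

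**Figure D4:**
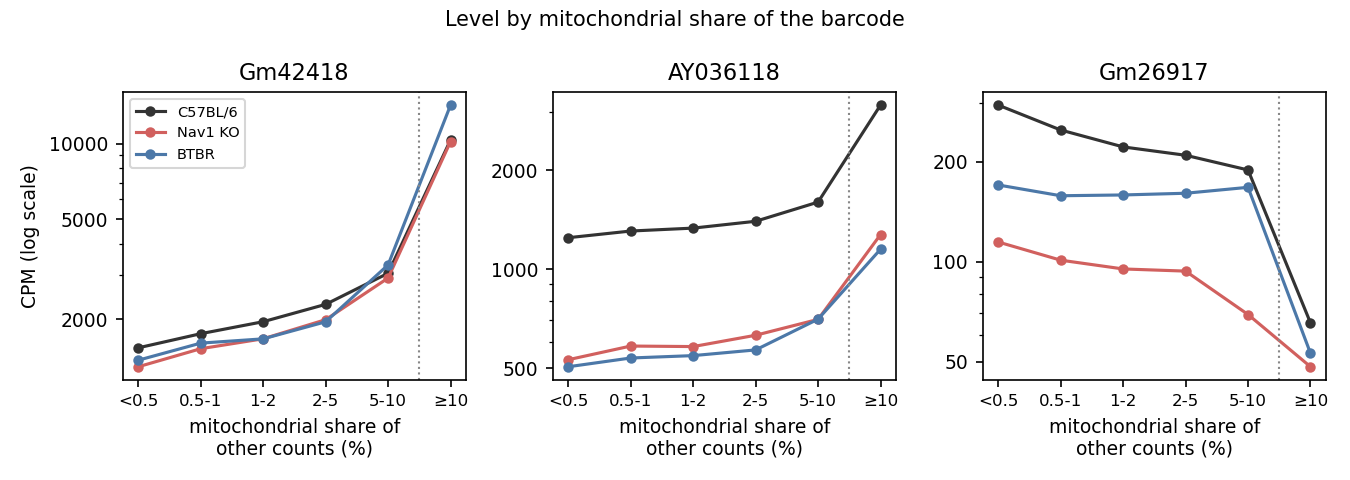
Level of each gene by the mitochondrial share of the barcode, on a log scale in CPM, 1 line per library; the dotted line marks the limit of 10% above which barcodes were removed. Gm42418 and AY036118 stand higher in barcodes of 10% or more than in those under 0.5%, and Gm26917 in C57BL/6 stands at 65.5 CPM there against 296 CPM.

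The count ratios among the 3 genes therefore differed between libraries and between kinds of nuclei. For each count of Gm42418 there were 0.748 counts of AY036118 (0.740 to 0.757) in C57BL/6, 0.381 (0.376 to 0.386) in Nav1 KO and 0.348 (0.343 to 0.353) in BTBR. There were 0.156 counts of Gm26917 (0.153 to 0.160), 0.0738 (0.0718 to 0.0758) and 0.111 (0.109 to 0.114). Over clusters of at least 50 nuclei, AY036118 per Gm42418 ranged from 0.613 to 0.872 in C57BL/6, from 0.283 to 0.455 in Nav1 KO and from 0.311 to 0.437 in BTBR, so the C57BL/6 clusters did not overlap those of the other libraries in this clustering. Among the 21 finer clusters they did, since the endothelial-like cluster of 50 nuclei in C57BL/6 was at 0.443 and the highest clusters were at 0.458 in Nav1 KO and 0.448 in BTBR. Gm26917 per Gm42418 ranged from 0.0837 to 0.250, from 0.0364 to 0.114 and from 0.0780 to 0.171, which overlapped. Among the 13 clusters, the layer 2/3-like cluster had the highest value of both ratios in all 3 libraries. In the finer clustering its AY036118 ratio was 0.434 in Nav1 KO and 0.430 in BTBR, below the highest. In the removed barcodes AY036118 per Gm42418 was 0.305, 0.125 and 0.0808, and Gm26917 per Gm42418 was 0.00634, 0.00475 and 0.00358. Within C57BL/6, AY036118 per Gm42418 was 0.613 (0.561 to 0.668) in cluster 7 and 0.872 (0.838 to 0.907) in the layer 2/3-like cluster, a difference beyond counting error.

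**Figure D5:**
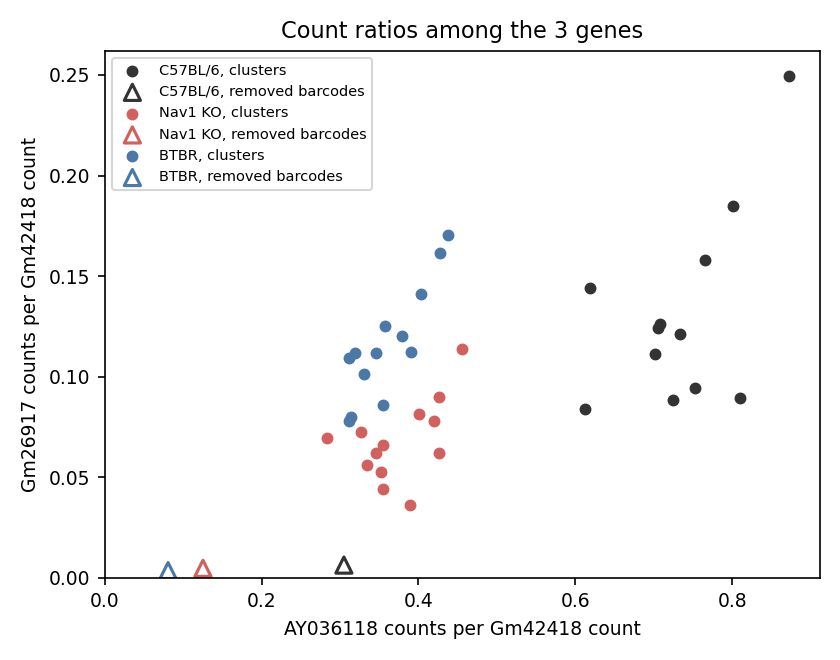
Counts of AY036118 and of Gm26917 per count of Gm42418. Each dot is a cluster of at least 50 nuclei in 1 library and each triangle is the removed barcodes of a library. The C57BL/6 clusters lie at 0.613 to 0.872 on the x axis and all other clusters at 0.455 or below, and the removed barcodes lie near the lower edge.

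The effect of the 3 genes on the CPM of other genes was small. Leaving them out of the total raised the CPM of every other gene by 0.329% in C57BL/6, 0.213% in Nav1 KO and 0.219% in BTBR, and by 0.134% to 0.578% in single clusters. Snap25, a gene of synaptic vesicle release, went from 798 to 800.4 CPM in C57BL/6. Malat1 went from 249864 to 250685 CPM and Drd1, a dopamine receptor gene, from 40.3 to 40.4 CPM. The ratio of a gene in Nav1 KO over C57BL/6 fell by 0.116% and in BTBR over C57BL/6 by 0.110%. Of 3751 other genes 4 crossed the 1.5-fold line in the first comparison, and of 3963 genes 2 in the second. In a single nucleus the effect could be larger. At the 99th percentile of nuclei it was 1.40%, 0.973% and 0.939%, and in the most extreme nucleus 25.4%, 8.59% and 4.45%. Gm42418 and AY036118 ranked 677th and 610th among the 2000 genes that vary most when the members are left in, and Gm26917 was not among them. Clustering then gave 15 clusters in place of 13.

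The gene whose level followed the 3 genes most closely over clusters and libraries was Lars2, the mitochondrial leucyl-tRNA synthetase. Over 38 cluster and library units, its Pearson correlation with the summed members was 0.909 (log2 of CPM plus 5, members left out of the total), and 0.920 after each library's mean was taken out. Lars2 stood at 124 CPM in C57BL/6, 86.3 CPM in Nav1 KO and 104 CPM in BTBR. It was on a fixed list of genes known to overlap or resemble ribosomal RNA sequence in mouse annotation. None of the 20-base words of its 9 GENCODE transcripts occurred in the members or the 18S rRNA. The search did not cover the other parts of the ribosomal RNA precursor, so a likeness of Lars2 to them was not tested. The next genes were Pbrm1 and Chd2, which encode chromatin remodelling proteins, mt-Atp6, a subunit of the mitochondrial ATP synthase, Acin1 and Thoc2, which encode RNA processing and export proteins, mt-Nd4l and mt-Nd3, subunits of complex I, and Nucks1 and Prrc2c, with correlations of 0.889 down to 0.813. The lowest correlations, of -0.798 to -0.835, belonged to Dpm2, Polr3a, Mlf2, Pfkm and Ift122. All 38 units share 3 libraries, and over units the mitochondrial share and depth moved with the members too. Within libraries, the correlation of Gm42418 over clusters with the mitochondrial share was 0.836, 0.887 and 0.734 and with the median UMIs -0.657, -0.699 and -0.433.

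To see which genes went with the members inside a cluster, the nuclei of each library, cluster and depth class (10 classes of equal size) were split at the median member share. The upper side held 0.474%, 0.308% and 0.316% member counts and the lower side 0.182%, 0.117% and 0.121%, in C57BL/6, Nav1 KO and BTBR. Median depth was 2078 against 2070.0 UMIs, 2754 against 2745 and 2512 against 2506, while the mitochondrial share was 0.817% against 0.749%, 0.792% against 0.675% and 0.653% against 0.559%. Of 3077 genes compared, 1719 (55.9%) were higher on the upper side in all 3 libraries and 589 (19.1%) lower, with median ratios of 1.04, 1.06 and 1.05. Malat1 was at 0.908, 0.893 and 0.891, and in C57BL/6 it held 238550 CPM on the upper side against 262725 CPM on the lower. All genes are shares of one total, so a fall of Malat1 by itself lifts the ratios of the others. It was left in the total here, and its part in the 55.9% and in the median ratios was not tested. Sst, the somatostatin gene of a class of interneurons, had the largest ratio, at 2.16, 3.12 and 2.48, and Npy, another interneuron peptide, was at 1.56, 1.63 and 1.79. Lars2 followed with 1.66, 1.55 and 1.56. The other genes among the 10 highest were Adarb2, a marker of a further interneuron class, Cntnap2, Ncam2 and Chl1, which encode neuronal adhesion proteins, Ccser1, the interneuron transcription factor Maf and the ribosomal protein gene Rplp1. The lowest were Gm27032 at 0.736, 0.727 and 0.781, Trim35 at 0.800, 0.756 and 0.809 and Slc50a1 at 0.800, 0.789 and 0.823, followed by Psmd9, Tmem108, Kctd16, Lamtor4, Pgbd5, Rnf126 and Rhou. The split uses the members' own counts, so these ratios are a description. A cluster can hold several cell types, and the part of their mix and of the mitochondrial share in these ratios was not tested.

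Of the 13 mitochondrial protein genes, 9 were compared in that split, and 8 were higher with the members in all 3 libraries and none lower, with medians of 1.1, 1.20 and 1.19. For example, mt-Atp6 was at 1.13, 1.27 and 1.21, and mt-Cytb at 0.989, 1.03 and 1.12. Cytosolic ribosomal protein genes were higher in all 3 libraries in 18 of 30 compared and lower in 2, beside 55.9% and 19.1% of all genes compared. Of 12 long nuclear RNAs, 6 were higher and 4 lower. Kcnq1ot1, an imprinted nuclear RNA, was at 1.16, 1.28 and 1.29, and Miat, a neuronal nuclear RNA, at 0.976, 0.935 and 0.992. RNA polymerase I subunits and factors were mostly below the limits, and 3 of 22 could be compared. None was higher in all 3 libraries and 2 were lower. Nucleolar and rRNA processing genes gave 3 higher and 2 lower of 5.

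Few genes of rRNA synthesis and processing were abundant enough to compare between libraries. Between Nav1 KO and C57BL/6, none of the 3 RNA polymerase I genes tested was past 1.5-fold. Ubtf, the factor that opens rRNA genes, was at 0.901 in Nav1 KO and 0.952 in BTBR, Ttf1, which ends their transcription, at 0.998 and 1.00, and Taf1d, part of the promoter complex, at 0.858 and 0.870. Of 7 nucleolar and processing genes tested in Nav1 KO, 2 were lower and none higher, beside 3.73% lower and 2.56% higher of all genes tested. Fbl, the rRNA methylating fibrillarin, went from 98.9 to 52.9 CPM, a ratio of 0.536, and Utp14a, a protein of 18S processing, from 56.3 to 33.9 CPM, a ratio of 0.603. In BTBR 1 of 8 was higher, the nucleolar helicase gene Ddx21 at 1.58, and none lower, with Fbl at 0.757, beside 5.55% higher and 4.19% lower of all genes. Ncl, the nucleolin gene, was at 0.786 and 0.948, Nop56 at 0.752 and 0.851 and Xrn2 at 0.758 and 0.904. The list did not move in one direction. Wdr43 was at 1.38 in Nav1 KO and 1.47 in BTBR, and Ddx21 was at 1.36 in Nav1 KO. The medians of the nucleolar list were 0.758 in Nav1 KO and 0.926 in BTBR, beside 0.913 and 1.00 over all other genes tested.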

How the data were processed

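The authors deposited 1 matrix of UMI counts per library (gene by barcode), made with Cell Ranger 6.0.0 on mm10 according to the submitters' processing notes. Whether introns or strand were used in counting was not given in the sources used here. Barcodes were kept if they had 200 genes or more and less than 10% of counts from mitochondrial genes, which gave 14630 of 15402 barcodes in C57BL/6, 14056 of 14623 in Nav1 KO and 14777 of 15238 in BTBR. The series' design text gives the same cell numbers for the first 2 and all 15238 barcodes for BTBR. Doublets were not called.

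The 3 genes were left out, the libraries were merged without integration, and nuclei were clustered in Seurat 5.3.0 (R 4.3.3) with 2000 variable genes. A cluster was named where at least 50% of its nuclei held a marker of a list and the next list's median fold was at most 0.6 of the best, limits set after the data were seen. CPM had exact Poisson intervals and ratios exact binomial ones (scipy 1.17.1), both at 95% and covering counting error only. With 1 library a group no p-value was computed. Genes were named by fixed lists and as the 10 with the highest and the lowest values in the split and the 10 highest and 5 lowest correlations. The members and lists were chosen with earlier results of these data known. Ratio and interval calculations were tested on simulated data. Positions and sequences came from GENCODE M21 (GRCm38). No column of the authors' own comparisons was used.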

Additional observations from a re-analysis of the deposited data

Results flagged for a closer look

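The barcodes removed for their mitochondrial share or their few genes lie outside the comparisons of the report. They held more of the 3 genes summed than the kept nuclei of the same library did. Gm26917 alone was lower there, at 0.244, 0.448 and 0.306 of its kept level in C57BL/6, Nav1 KO and BTBR. The summed level was 4.14 (4.07 to 4.21) times that of the kept nuclei in C57BL/6, 5.41 (5.32 to 5.51) times in Nav1 KO and 7.06 (6.94 to 7.19) times in BTBR. In CPM this was 13559 against 3277, 11494 against 2124 and 15422 against 2183. Mitochondrial genes made up 30.5%, 22.4% and 25.1% of the counts in these barcodes.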

How the results depend on the processing

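Each group was 1 pooled library, so leaving out replicates was not possible, and the intervals cover counting error only. No paired analysis was possible because each group has 1 library and no result comes from a test. Among the alternatives below, no ratio of the summed members crossed 1. Within bins, Gm42418 in Nav1 KO over C57BL/6 did, at 1.03 among nuclei of 1000 to 2000 UMIs, and so did Gm42418 in BTBR, at 1.08 among nuclei of 5% to 10% mitochondrial counts. In BTBR among barcodes of 10% or more mitochondrial counts, the summed members were at 1.14 and Gm42418 at 1.38. In Nav1 KO the summed members were at 1.01 (0.970 to 1.06) and Gm42418 at 1.43 in the unnamed finer cluster of shallow nuclei. The cause of the shifts below was not tested.

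The summed members in Nav1 KO over C57BL/6 (0.648) were at 0.657 in all deposited barcodes, 0.654 without the 5% of nuclei with the most UMIs, 0.662 as a mean over nuclei, 0.682 thinned to 1000 UMIs, 0.692 with Malat1 left out of the total, 0.601 at the same cluster make-up and 0.695 at the same depth make-up. For BTBR (0.666) they were at 0.683 in all barcodes, 0.675 as a mean and 0.675 as a median over nuclei, 0.696 thinned, 0.641 at the same cluster make-up and 0.691 at the same depth make-up. With Malat1 left out, the Nav1 KO ratio was 0.906 for Gm42418, 0.461 for AY036118 and 0.428 for Gm26917.

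The interneuron-like over layer 2/3-like ratio with the members kept in the clustered counts was 2.56 in C57BL/6 and 2.24 in Nav1 KO. With 20 principal components it was 2.49, 2.34 and 2.22 in C57BL/6, Nav1 KO and BTBR, with each library clustered by itself 2.64, 1.97 and 1.68, and as a mean over nuclei 2.33 in C57BL/6. The depth ratio within clusters was 1.23, 1.18 and 1.24. The mitochondrial ratio within clusters was 1.20, 1.23 and 1.31, and in nuclei of 1000 and under 4000 UMIs it was 1.28 in C57BL/6 and 1.39 in BTBR.

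Counts of AY036118 per Gm42418 in all barcodes were 0.686, 0.346 and 0.308, and without the nuclei of most UMIs 0.737 in C57BL/6 and 0.372 in Nav1 KO. Counts of Gm26917 per Gm42418 were 0.135, 0.0643 and 0.0951 in all barcodes, and 0.151 in C57BL/6 and 0.0706 in Nav1 KO without the nuclei of most UMIs.

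The counts of other genes past 1.5-fold depended on the minimum level. In place of 138 lower and 96 higher in Nav1 KO and 164 and 220 in BTBR, a minimum of 1 count in each library gave 2407 and 2526, and 2506 and 2804, whereas 200 CPM in 1 library gave 27 and 19, and 31 and 35. In the split by member share, with Malat1 left in the total, 450 genes were higher and 96 lower by 1.1-fold in all 3 libraries. A split into 4 equal groups of nuclei, highest against lowest, gave 913 and 218, and depth classes without clusters gave 645 and 162.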

Other observations

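Over all genes compared, 3.73% were lower and 2.56% higher by 1.5-fold or more in Nav1 KO than in C57BL/6, and 4.19% lower and 5.55% higher in BTBR. Of the 13 mitochondrial protein genes, 10 could be compared, and none was past 1.5-fold in Nav1 KO, while 3 were lower in BTBR. These were mt-Nd3, a subunit of complex I, at 55.1 against 156 CPM in C57BL/6 (ratio 0.354), mt-Atp6, of the ATP synthase, at 919.8 against 1582 CPM (0.581), and mt-Nd5, of complex I, at 47.4 against 76.5 CPM (0.620). Among 12 long nuclear RNAs, Snhg20 was higher in both libraries, with 197 CPM in Nav1 KO and 194 CPM in BTBR against 117 CPM in C57BL/6. Mirg was lower in Nav1 KO at a ratio of 0.596, and Snhg14 was lower in BTBR at 0.640. None of 45 cytosolic ribosomal protein genes was past 1.5-fold in Nav1 KO, and 2 were lower and 1 higher of 46 in BTBR. Each is a value of 1 library against 1 and was not tested.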
